A study of Mus musculus with 8 samples.

Results

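Naive pluripotency transcription factors were followed across control, Hira-depleted, Ubn1-depleted and Ubn2-depleted mouse ESCs. The 10 members were Nanog, Klf2, Klf4, Klf5, Esrrb, Tbx3, Tfcp2l1, Zfp42, Prdm14 and Nr0b1. They were taken by symbol from the 3 deposited count tables, and all 10 were found among the 55418 genes listed. Every member had enough counts to be tested in every comparison, with 338 to 25713 counts per library.

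The study asked how the transcriptome changes after depletion of HIRA, UBN1 or UBN2, which are subunits of the chaperone complex that deposits histone variant H3.3 independently of DNA replication. RNA-seq was performed on 8 libraries, 2 for each of the 4 conditions. All cells were the E14 ESC line, an established male mouse line whose strain is given in the labels as 12910la, kept on gelatin in serum with LIF. For each knockdown, cells received 1000 ng of pSuper puro plasmid carrying an shRNA against Hira, Ubn1 or Ubn2, and puromycin at 1 µg/ml was given from 24 h after transfection for 3 days. The control cells are labelled wild type in genotype and share the same protocol text, and the study's methods name luciferase as the target of the control shRNA. The knockdowns were therefore transient and partial, in a selected pool of cells and not in a clone. Whether the libraries of a condition came from separate cultures is not stated, so that p-values measure the spread between these libraries, which may be technical. In bulk RNA, fewer cells expressing a gene and less RNA per cell cannot be told apart.

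The naive state is the ground state of the pre-implantation epiblast, and mouse ESCs hold it through a network of transcription factors that support each other's expression. LIF acts through its receptor and STAT3 to sustain Klf4 and Tfcp2l1, while Wnt signalling relieves repression by TCF7L1 of Esrrb, Tfcp2l1, Klf2 and Nanog. OCT4 and SOX2, encoded by Pou5f1 and Sox2, are shared with the primed state, whereas the 10 factors followed here are lost or strongly reduced when cells leave the naive state. In serum and LIF, several of them, above all Nanog and Zfp42, are known to vary from cell to cell.

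The targeted genes were lower in their own depletion. Hira went from 93.5 ± 5.76 to 10.2 ± 0.261 CPM (counts scaled to the size of the library), Ubn1 from 48.5 ± 6.33 to 23.8 ± 0.0369 CPM and Ubn2 from 50.9 ± 1.12 to 27.3 ± 3.92 CPM (SD, n = 2 each). Total counts were 19710040 to 32706053 per library. Averaged over 19993 to 21090 genes, counting error was small beside the spread between libraries. The chi-square between replicates, per degree of freedom, was 5.87 to 12.9. This average does not hold for each gene. The SD of Ubn1 after its own depletion, at 521 and 620 counts, was under its counting error. So were those of Prdm14 after Ubn1 depletion and Zfp42 in controls. Such small SDs over 2 libraries do not measure precision. The ESC label was met, as Pou5f1 ranged from 941 to 1255 CPM and Sox2 from 351 to 447 CPM over the 8 libraries, and Hprt, which the E14Tg2a subline is known to lack, lay between 0.228 and 1.10 CPM. In Ubn2-depleted libraries, 7 cardiac muscle markers summed to 169 to 268 CPM, against 9.67 to 14.4 CPM in the other 6 libraries. Markers of 2-cell-like cells summed to 3.43 to 7.64 CPM in controls, 20.7 to 26.5 CPM after Hira, 14.7 to 15.3 CPM after Ubn1 and 25.8 to 37.7 CPM after Ubn2 depletion.

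Expression levels of the members were first compared with each other in control cells, as CPM per kilobase of annotated exon. Zfp42, which encodes the zinc finger protein REX1 and is a widely used marker of the naive state, was highest at 362 ± 0.631 per kilobase (SD, n = 2). Nanog followed at 199.9 ± 15.2, Klf2 at 176.5 ± 14.4 and Esrrb at 129.0 ± 6.61 per kilobase. Klf4, Nr0b1, Klf5, Tfcp2l1 and Tbx3 lay between 67.1 and 25.0 per kilobase. Prdm14 was lowest, at 7.18 ± 1.08 per kilobase. The control libraries of neighbours in this order did not overlap, except those of Klf5 and Tfcp2l1, at 40.3 ± 2.79 and 39.0 ± 2.64 per kilobase. These levels assume that all annotated exons are used.

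The order was much the same after Ubn1 depletion, with the same gene at every rank as in controls. After Hira depletion, Tfcp2l1 stood at 27.0 ± 1.47 per kilobase, level with Tbx3 at 27.7 ± 3.12, and the libraries of the pair overlapped. After Ubn2 depletion, Klf2 stood above Nanog, at 260 ± 18.9 against 226 ± 14.2 per kilobase, and their libraries did not overlap. Nr0b1 moved from rank 6 in controls to rank 5 after both Hira and Ubn2 depletion, although its libraries overlapped with those of Klf4 after Hira depletion. Klf4 moved from rank 5 to rank 8 after Ubn2 depletion, although its libraries overlapped with those of Tfcp2l1 at rank 7.

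**Figure D1:**
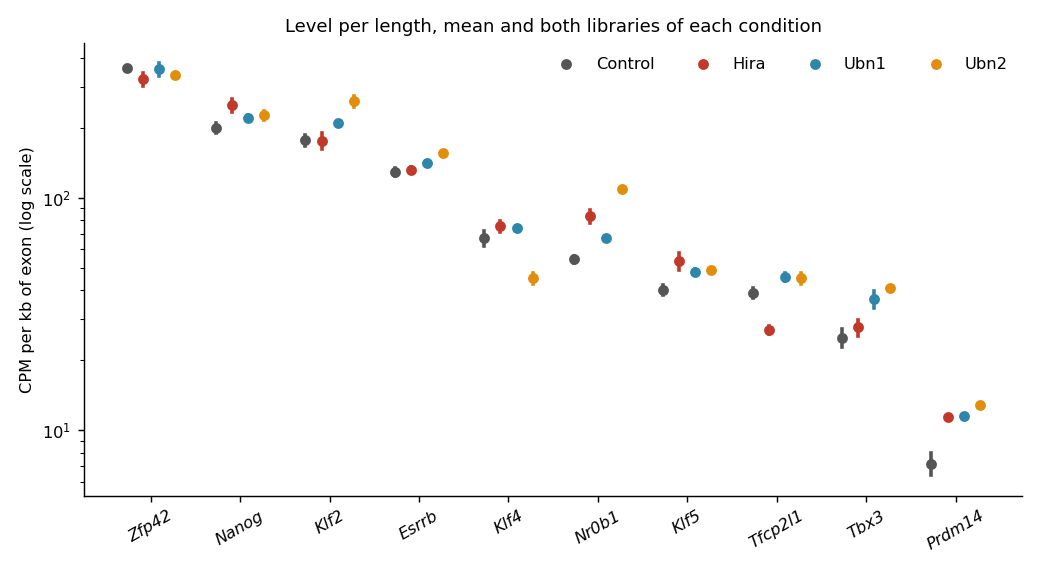
Levels of the 10 members in each condition, as CPM per kilobase of annotated exon on a log axis, with a point at the mean of 2 libraries and a line from the lower library to the higher. Zfp42 is highest and Prdm14 lowest in every condition, Klf2 stands above Nanog after Ubn2 depletion, and Tfcp2l1 lies level with Tbx3 after Hira depletion.

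Summed over the 10 members, levels were 3213 to 3385 CPM in controls, 3300 to 3539 CPM after Hira depletion, 3639 to 3777 CPM after Ubn1 depletion and 3863 to 3904 CPM after Ubn2 depletion. Both Ubn1 and both Ubn2 libraries were thus above both controls, while the Hira libraries overlapped with them.

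**Figure D2:**
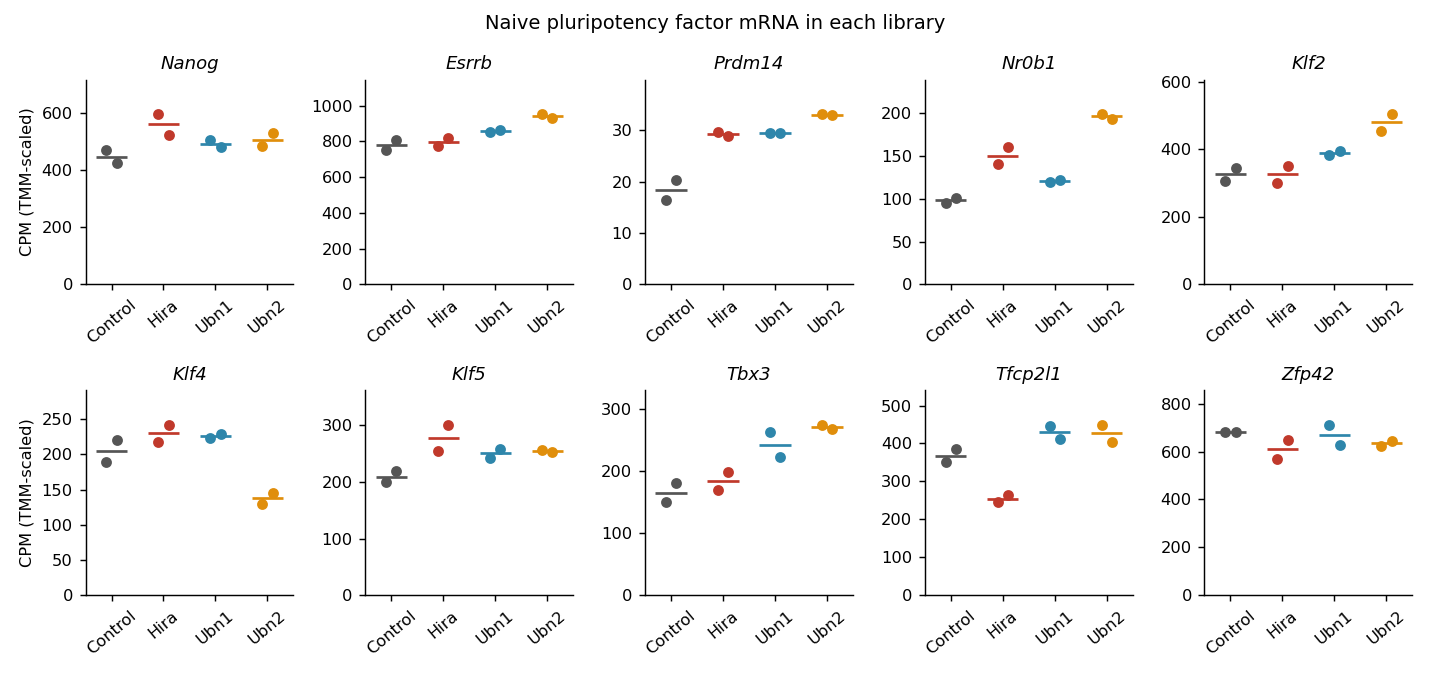
Expression of each member in every library, in CPM on TMM-scaled library sizes, with 2 libraries per condition and a bar at their mean. Nr0b1 and Prdm14 libraries of all 3 depletions lie above both controls, Klf4 lies below them only after Ubn2 depletion, and Tfcp2l1 only after Hira depletion.

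Each depletion was then compared with control by the quasi-likelihood F-test of edgeR, with p-values adjusted over all genes tested after Benjamini and Hochberg. A gene is said here to have risen or fallen when the adjusted p was under 0.05, and is called upregulated or downregulated when its fold change was also over 1.5, the rule of the study. The 3 comparisons share the control libraries, so their directions are not independent of each other.

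After Hira depletion, Nanog, Klf5, Prdm14 and Nr0b1 rose, Tfcp2l1 fell, and the other 5 members did not pass the test. Of the 19035 genes tested, 17.6% rose and 17.3% fell, and among genes averaging at least 10 CPM, where all members lie, the shares were 17.4% and 26.6%. Prdm14 and Nr0b1 were called upregulated and no member was called downregulated, where 10.8% and 5.4% of all genes were called. The median log2 fold change of the members was 0.14, against 0.01 over all genes tested. Libraries of both conditions did not overlap in 6 members, 4 above the controls and 2 below, where 35.6% and 31.4% of all genes did so. Leaving out single libraries moved the members' median between 0.02 and 0.25.

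After Ubn1 depletion, Tbx3, Prdm14 and Nr0b1 rose and no member fell, also not in DESeq2 or at an unadjusted p under 0.05 in edgeR. Of the 18373 genes tested, 4.14% rose and 3.62% fell, or 5.84% and 4.63% of genes averaging at least 10 CPM. Only Prdm14 was called upregulated, where 1.53% of all genes were, and no member was among the 1.56% called downregulated. Both Ubn1 libraries were above both controls in 9 of the 10 members, against 26.5% of all genes, and in no member were both below, against 24.8%. The median of the members was 0.24 on the log2 scale, against -0.00 over all genes tested. Without control replicate 1, which had the lower level in 8 of the 10 members, no member passed the test, and without control replicate 2 Tbx3 and Prdm14 did.

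After Ubn2 depletion, Klf2, Klf5, Esrrb, Tbx3, Tfcp2l1, Prdm14 and Nr0b1 rose and Klf4 fell. Nanog and Zfp42 did not pass the test. Of the 18219 genes tested, 20% rose and 3473 fell, so that 39.1% passed in either direction, as did 8 of the 10 members. Among genes averaging at least 10 CPM, 24.3% rose and 23.3% fell. Tbx3, Prdm14 and Nr0b1 were called upregulated and no member downregulated, where 9.59% and 8.75% of all genes were called. The median of the members was 0.28 on the log2 scale, against -0.00 over all genes. No member had overlapping control and Ubn2 libraries, as 8 lay above and 2 below, where 34.7% and 34.9% of all genes did. Without control replicate 1, Esrrb, Klf5 and Tfcp2l1 no longer passed the test and Nanog did.

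**Figure D3:**
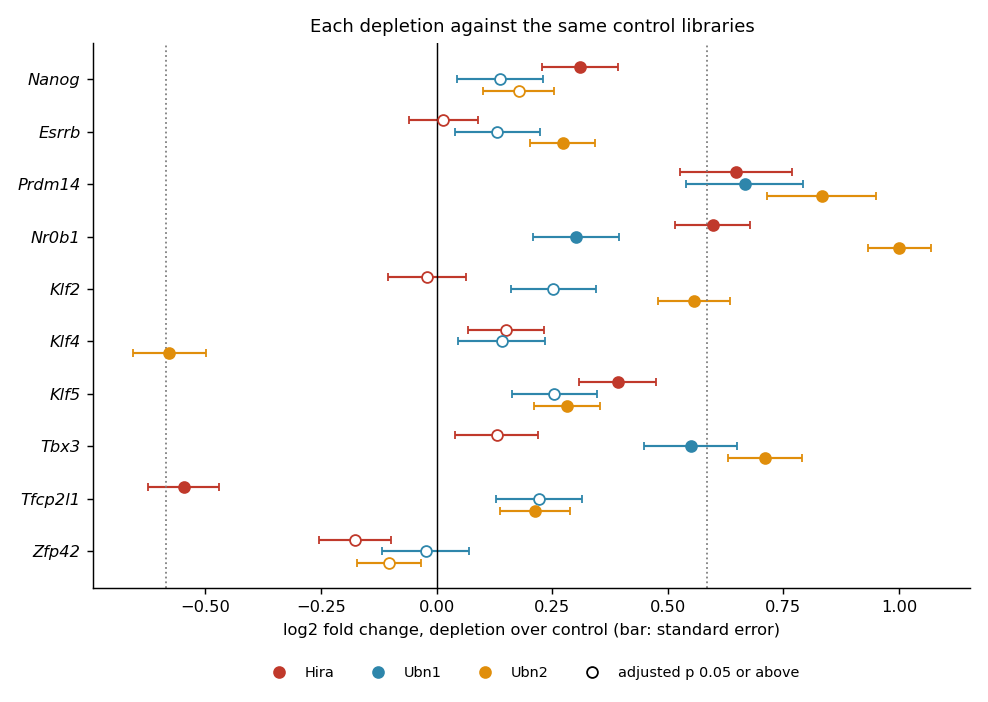
Log2 fold change of each member after Hira, Ubn1 and Ubn2 depletion against the same 2 control libraries. Bars show the standard error from edgeR, and filled points had an adjusted p under 0.05. Nr0b1 and Prdm14 lie above 0 in all 3 depletions, Klf4 lies below 0 after Ubn2 depletion at -0.58, and Tfcp2l1 after Hira depletion at -0.55.

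Nr0b1, on chromosome X of GRCm38 from 86191764 to 86195947 on the plus strand, encodes DAX1, an orphan nuclear receptor that lacks a classical DNA-binding domain and binds OCT4. It had 94.8 and 101.5 CPM in controls, 140.5 and 160.4 CPM after Hira, 120.2 and 122.2 CPM after Ubn1, and 199.4 and 193.9 CPM after Ubn2 depletion. Libraries of the 4 conditions did not overlap with each other. The log2 fold change was 1.00 after Ubn2 depletion (standard error 0.07, adjusted p = 4.2e-10), 0.60 after Hira depletion (0.08, adjusted p = 9.07e-06) and 0.30 after Ubn1 depletion (0.09, adjusted p = 0.0397). The rise after Hira depletion lay just past the 1.5-fold limit and fell under it without control replicate 1 (0.54) or Hira replicate 2 (0.50), as well as with no filter on low counts (0.58). After Ubn1 depletion the adjusted p was over 0.05 without either control library or with no filter. The 300 bases around its RefSeq start site, from 250 bases before it to 50 after, are shown because Nr0b1 rose in all 3 depletions and had the largest change of any member, after Ubn2 depletion. The capitals mark a TATAAA motif that starts 32 bases before the start site.
Nr0b1, chrX:86191525-86191824, plus strand, GRCm38.p6: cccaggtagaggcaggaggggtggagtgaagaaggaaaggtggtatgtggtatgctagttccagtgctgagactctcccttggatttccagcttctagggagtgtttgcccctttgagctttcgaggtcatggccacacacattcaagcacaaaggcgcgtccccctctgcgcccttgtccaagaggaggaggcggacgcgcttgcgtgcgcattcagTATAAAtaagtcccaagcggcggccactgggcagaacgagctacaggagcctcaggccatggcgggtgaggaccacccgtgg

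Prdm14, on chromosome 1 from 13113457 to 13127163 on the minus strand, encodes a PR domain protein that represses FGF signalling and de novo DNA methylation genes in naive cells. It had 16.5 and 20.4 CPM in controls, 29.7 and 28.9 CPM after Hira depletion, 29.4 and 29.4 CPM after Ubn1 depletion and 33.2 and 32.9 CPM after Ubn2 depletion. All 6 depleted libraries were above both controls, and the controls were further apart than the libraries of any depletion. Log2 fold changes were 0.65 (standard error 0.12, adjusted p = 0.000291), 0.67 (0.13, adjusted p = 0.000739) and 0.83 (0.12, adjusted p = 9.17e-06) after Hira, Ubn1 and Ubn2 depletion. Without control replicate 1, the lower of the controls, they were 0.51, 0.53 and 0.69. Prdm14 was then no longer called after Hira depletion, being under 1.5-fold, nor after Ubn1 depletion, where the adjusted p was 0.0553.

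Tbx3, on chromosome 5 from 119670669 to 119684724 on the plus strand, encodes a T-box repressor that is sustained by LIF through PI3K and is also used in heart development. It had 150.4 and 180.8 CPM in controls, 169.0 and 198.3 CPM after Hira depletion, 263.2 and 222.5 CPM after Ubn1 depletion and 275.3 and 267.6 CPM after Ubn2 depletion. The Ubn1 and Ubn2 libraries were above both controls, and the Hira libraries overlapped with them. The log2 fold change was 0.71 after Ubn2 depletion (standard error 0.08, adjusted p = 4.78e-07), 0.55 after Ubn1 depletion (0.10, adjusted p = 0.00056, not passed without control replicate 1) and 0.13 after Hira depletion (adjusted p = 0.284, 95% interval -0.06 to 0.32). The change after Hira depletion lay between -0.0007 and 0.27 when single libraries were left out. Without control replicate 1 the change after Ubn2 depletion was 0.58, under the 1.5-fold limit. Beside this, 6 of the 7 cardiac muscle markers were called upregulated after Ubn2 depletion and 1 downregulated, where 9.59% and 8.75% of all genes were. Actc1 had 85.3 and 49.7 CPM after Ubn2 depletion, against 0.0974 and 0.189 CPM in controls. Csrp3 was the only cardiac marker at 0 in both controls. After Ubn1 depletion, where Tbx3 also rose, none of the 3 cardiac markers tested was called, and all 7 summed to 9.67 to 14.4 CPM. The part of the cardiac markers in the Tbx3 result after Ubn2 depletion was not tested. The annotation places the antisense gene Tbx3os1 over 115 exonic bases of Tbx3, and since the strand setting is not given, reads there cannot be assigned to a strand. Tbx3os1 itself held 96 to 227 counts per library, against 3090 to 5989 for Tbx3.

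The Krüppel-like factors Klf2, Klf4 and Klf5 bind the same GC-rich sequences and can partly replace each other in ESCs. They did not move together. Klf4 was the only member to fall after Ubn2 depletion, while Klf2 and Klf5 rose. Klf4, on chromosome 4 from 55527143 to 55532466 on the minus strand, had 189.1 and 220.1 CPM in controls, 217.5 and 242.2 CPM after Hira, 222.9 and 229.1 CPM after Ubn1, and 130.1 and 144.6 CPM after Ubn2 depletion. The Ubn2 libraries were the lowest of the 8. The log2 fold change after Ubn2 depletion was -0.58 (standard error 0.08, adjusted p = 5.84e-06), just short of 1.5-fold, and passed that limit without control replicate 1 (-0.69), without Ubn2 replicate 2 (-0.65) or with no filter on low counts (-0.60). After Hira and Ubn1 depletion it was 0.15 (adjusted p = 0.171, 95% interval -0.02 to 0.32) and 0.14 (adjusted p = 0.403, -0.05 to 0.33). The change after Hira depletion lay between 0.04 and 0.26 when single libraries were left out, and passed the test with a block for replicate number.

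Klf2, on chromosome 8 from 72319033 to 72321656 on the plus strand, is the factor of the family that depends least on LIF. It had 307.2 and 344.8 CPM in controls, 299.4 and 351.3 CPM after Hira, 382.7 and 394.9 CPM after Ubn1, and 455.3 and 504.6 CPM after Ubn2 depletion. The control and Hira libraries overlapped, and the Ubn2 libraries were the highest. The log2 fold change was 0.56 after Ubn2 depletion (standard error 0.08, adjusted p = 7.99e-06), which passed 1.5-fold without control replicate 2 or Ubn2 replicate 1 and stayed short of it otherwise. It was 0.25 after Ubn1 depletion (adjusted p = 0.0878, 95% interval 0.06 to 0.44) and -0.02 after Hira depletion (adjusted p = 0.878, -0.19 to 0.15).

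Klf5, on chromosome 14 from 99298691 to 99315036 on the plus strand, is needed for the ESC state as well as for the trophectoderm. It had 199.2 and 219.8 CPM in controls, 255.2 and 301.3 CPM after Hira, 242.8 and 257.8 CPM after Ubn1, and 256.9 and 253.1 CPM after Ubn2 depletion. All depleted libraries were above both controls. Klf5 rose by 0.39 on the log2 scale after Hira depletion (standard error 0.08, adjusted p = 0.00101) and by 0.28 after Ubn2 depletion (0.07, adjusted p = 0.00328). The change of 0.25 after Ubn1 depletion did not pass the test (adjusted p = 0.0843, 95% interval 0.07 to 0.44). Of the 7 trophoblast markers, 2 were called upregulated after Hira depletion and 2 after Ubn2 depletion, where 10.8% and 9.59% of all genes were. The sum of the 7 was 12.7 to 13.0 CPM in controls and 18.4 to 20.02 CPM after Hira depletion. It was 12.7 to 13.7 CPM after Ubn1 and 14.2 to 14.4 CPM after Ubn2 depletion. None of these markers was at 0 in both libraries of a condition. Their part in the Klf5 result was not tested.

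The start site regions of Klf4 and Klf2 are shown next to each other because these genes moved in opposite directions after Ubn2 depletion. The capitals mark the GC box GGGCGGG on either strand, a sequence that Krüppel-like and Sp factors can bind. Klf4 held 4 matches, of which the first pair overlaps, and Klf2 held 2.
Klf4, chr4:55532426-55532725, minus strand, GRCm38.p6: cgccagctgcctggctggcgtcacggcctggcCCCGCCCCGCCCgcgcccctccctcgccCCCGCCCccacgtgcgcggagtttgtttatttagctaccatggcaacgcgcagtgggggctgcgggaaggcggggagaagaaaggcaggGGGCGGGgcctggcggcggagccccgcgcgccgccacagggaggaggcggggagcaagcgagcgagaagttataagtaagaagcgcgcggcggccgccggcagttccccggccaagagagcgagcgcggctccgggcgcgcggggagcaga
Klf2, chr8:72318812-72319111, plus strand, GRCm38.p6: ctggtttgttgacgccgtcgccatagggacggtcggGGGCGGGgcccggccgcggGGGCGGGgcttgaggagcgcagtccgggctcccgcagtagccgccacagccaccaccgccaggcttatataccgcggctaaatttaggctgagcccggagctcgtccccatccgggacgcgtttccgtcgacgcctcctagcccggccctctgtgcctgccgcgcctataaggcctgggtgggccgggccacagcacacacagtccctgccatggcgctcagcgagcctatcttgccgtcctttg

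Tfcp2l1, on chromosome 1 from 118627945 to 118685168 on the plus strand, encodes a grainyhead-family factor that is a main target of both LIF and Wnt signalling in ESCs. It had 350.1 and 385.4 CPM in controls, 244.9 and 264.5 CPM after Hira depletion, 447.1 and 412.0 CPM after Ubn1 depletion and 449.9 and 402.8 CPM after Ubn2 depletion. The Hira libraries were the lowest of the 8, and the Ubn1 and Ubn2 libraries were above both controls. It was the only member to fall after Hira depletion (log2 fold change -0.55, standard error 0.08, adjusted p = 1.4e-05). The fall was short of 1.5-fold and passed it without control replicate 1 (-0.62) or Hira replicate 2 (-0.61). After Ubn2 depletion the change was 0.21 (0.08, adjusted p = 0.032), and the adjusted p was 0.0683 with all 8 libraries in one fit, 0.276 without control replicate 1 and 0.243 without Ubn2 replicate 1. After Ubn1 depletion it was 0.22 (adjusted p = 0.146, 95% interval 0.03 to 0.41). Its exons include 130 bases annotated as the small RNA gene Gm23497, which held 193 to 435 counts, against 5577 to 12261 for Tfcp2l1. The capitals in its start site region mark a TATAAA motif 28 bases before the start site.
Tfcp2l1, chr1:118627695-118627994, plus strand, GRCm38.p6: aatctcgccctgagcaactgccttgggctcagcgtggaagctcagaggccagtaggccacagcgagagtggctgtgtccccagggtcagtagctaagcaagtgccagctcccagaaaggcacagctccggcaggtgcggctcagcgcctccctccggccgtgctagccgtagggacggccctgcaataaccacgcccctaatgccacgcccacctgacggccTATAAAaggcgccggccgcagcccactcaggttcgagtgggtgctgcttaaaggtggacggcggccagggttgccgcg

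Nanog, on chromosome 6 from 122707489 to 122714633 on the plus strand, encodes the homeodomain factor at the centre of the naive network. It had 472.2 and 423.9 CPM in controls, 597.7 and 525.1 CPM after Hira depletion, 506.5 and 480.7 CPM after Ubn1 depletion and 484.2 and 529.3 CPM after Ubn2 depletion. All 6 depleted libraries were above both controls, by little in some. Nanog rose by 0.31 on the log2 scale after Hira depletion (standard error 0.08, adjusted p = 0.00569), and no longer passed the test without control replicate 2. The changes of 0.14 after Ubn1 depletion (adjusted p = 0.411, 95% interval -0.05 to 0.33) and 0.18 after Ubn2 depletion (adjusted p = 0.0701, 0.02 to 0.33) did not pass it, although the latter did without control replicate 1 or without Ubn2 replicate 1. The processed copies Nanog-ps1 and Nanog-ps2 held 0 to 2 counts per library. The Nanog start site region is shown for comparison, as the textbook case of joint OCT4 and SOX2 control. Its first annotated window holds the octamer core TTTGCAT 75 bases before the start site, with the Sox motif CATTGT on the opposite strand, read as ACAATG, from 67 bases before it.
Nanog, chr6:122707239-122707538, plus strand, GRCm38.p6: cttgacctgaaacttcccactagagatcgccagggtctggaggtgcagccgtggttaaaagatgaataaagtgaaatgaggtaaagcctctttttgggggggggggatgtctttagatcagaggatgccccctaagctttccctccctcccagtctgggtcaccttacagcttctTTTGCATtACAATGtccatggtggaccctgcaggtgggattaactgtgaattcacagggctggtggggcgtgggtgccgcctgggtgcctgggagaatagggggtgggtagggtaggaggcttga

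Of the 10 members, 7 had a start site region in the RefSeq table of GRCm38.p6. The motifs were chosen after these sequences had been read, and both strands were searched. TTTGCAT was found in Nanog and Zfp42 and in 4.63% of 32851 regions of the same length, and CATTGT in Nanog and Esrrb and in 12.6% of regions. The GC box GGGCGGG was found in Klf2, Klf4 and Zfp42 and in 25.6% of regions, and GGGTGTGG, which overlaps a GC box there, in Zfp42 and in 3.56%. TATAAA was found in Nr0b1 and Tfcp2l1 and in 13.6% of regions. TTCNNNGAA, the palindrome bound by STAT3, was found in Esrrb and in 8.3%, and the Esrrb motif AAGGTCA in none of the 7 and in 4.72%.

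Esrrb, on chromosome 12 from 86361117 to 86521628 on the plus strand, encodes an orphan nuclear receptor that works beside Nanog. It had 751.8 and 808.3 CPM in controls, 775.5 and 817.9 CPM after Hira, 849.7 and 861.7 CPM after Ubn1, and 953.4 and 931.7 CPM after Ubn2 depletion. The Hira libraries overlapped with the controls and the Ubn2 libraries were the highest. Esrrb rose by 0.27 on the log2 scale after Ubn2 depletion (standard error 0.07, adjusted p = 0.00392). The changes of 0.01 after Hira depletion (adjusted p = 0.906, 95% interval -0.14 to 0.17) and 0.13 after Ubn1 depletion (adjusted p = 0.426, -0.05 to 0.32) did not pass the test.

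Zfp42, on chromosome 8 from 43295063 to 43306980 on the minus strand, did not pass the test in any depletion. However, its change after Hira depletion did so with no filter on low counts, with a block for replicate number and without Hira replicate 2. Zfp42 had 681.9 and 680.2 CPM in controls, 570.4 and 649.2 CPM after Hira, 712.8 and 628.3 CPM after Ubn1, and 625.0 and 643.3 CPM after Ubn2 depletion. The Hira and Ubn2 libraries were below both controls, which lay close together, and the Ubn1 libraries lay on either side of them. The log2 fold changes were -0.18 after Hira depletion (adjusted p = 0.0828, 95% interval -0.34 to -0.02), -0.02 after Ubn1 depletion (adjusted p = 0.917, -0.22 to 0.17) and -0.10 after Ubn2 depletion (adjusted p = 0.249, -0.25 to 0.04). Its near copy Zfp42-ps1 held counts equal to 4.27% to 5.97% of those on Zfp42, and reads could be split between them.

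The depletions were next compared with each other, without the controls. They were not matched in depth, as the targeted gene stood at 0.108, 0.490 and 0.538 of control for Hira, Ubn1 and Ubn2. Ubn1 and Ubn2 also rose after Hira depletion (0.48 and 0.26, adjusted p = 0.000464 and 0.0231). Hira rose after Ubn2 depletion (0.19, adjusted p = 0.0424). The part of these levels in the differences below was not tested. The clearest differences were in Klf4, Tfcp2l1 and Nr0b1. Hira-depleted cells had more Klf4 and less Tfcp2l1 than Ubn2-depleted cells, with log2 differences of 0.75 (standard error 0.08, adjusted p = 1.06e-05) and -0.74 (0.08, adjusted p = 1.37e-05). Both were called, where 12% of 18563 genes were called higher and 5.61% lower in Hira-depleted cells. Klf2, Tbx3, Nr0b1 and Esrrb also passed the test and were lower after Hira depletion, by differences of -0.55, -0.56, -0.38 and -0.24, so that 1 member was higher and 5 were lower, against 18.6% and 17.2% of all genes. For Esrrb the adjusted p was 0.0283, and it was over 0.05 in 3 of the 4 fits that left out a library.

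Against Ubn1 depletion, Hira depletion gave lower Tfcp2l1 (-0.75, standard error 0.10, adjusted p = 6.79e-06) and lower Tbx3 (-0.40, 0.11, adjusted p = 0.0083), and higher Nr0b1 (0.32, 0.10, adjusted p = 0.0192). Tfcp2l1 alone was called, where 9.52% of 18819 genes were called higher and 3.16% lower, and 14.2% and 10.2% passed the adjusted p. The Tbx3 and Nr0b1 differences each lost significance without a Hira library, replicate 1 for Tbx3 and replicate 2 for Nr0b1.

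Between the depletions of the paralogues, Nr0b1 was higher (0.70, standard error 0.08, adjusted p = 2.73e-05) and Klf4 lower (-0.72, 0.09, adjusted p = 3.72e-05) after Ubn2 than after Ubn1 depletion, and both were called. Of 18205 genes, 4.61% were called higher and 4.09% lower, and 8.6% and 7.98% passed the adjusted p. Klf2 was higher by 0.30 (adjusted p = 0.0388), and the test was not passed without either Ubn2 library. Prdm14 did not pass the test between any of the depletions, and its differences were -0.16 (95% interval -0.37 to 0.04) for Hira against Ubn2, 0.01 (-0.23 to 0.24) for Hira against Ubn1 and 0.17 (-0.06 to 0.39) for Ubn2 against Ubn1 depletion. Nanog, Klf5 and Zfp42 did not pass it in any of these comparisons either.

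**Figure D4:**
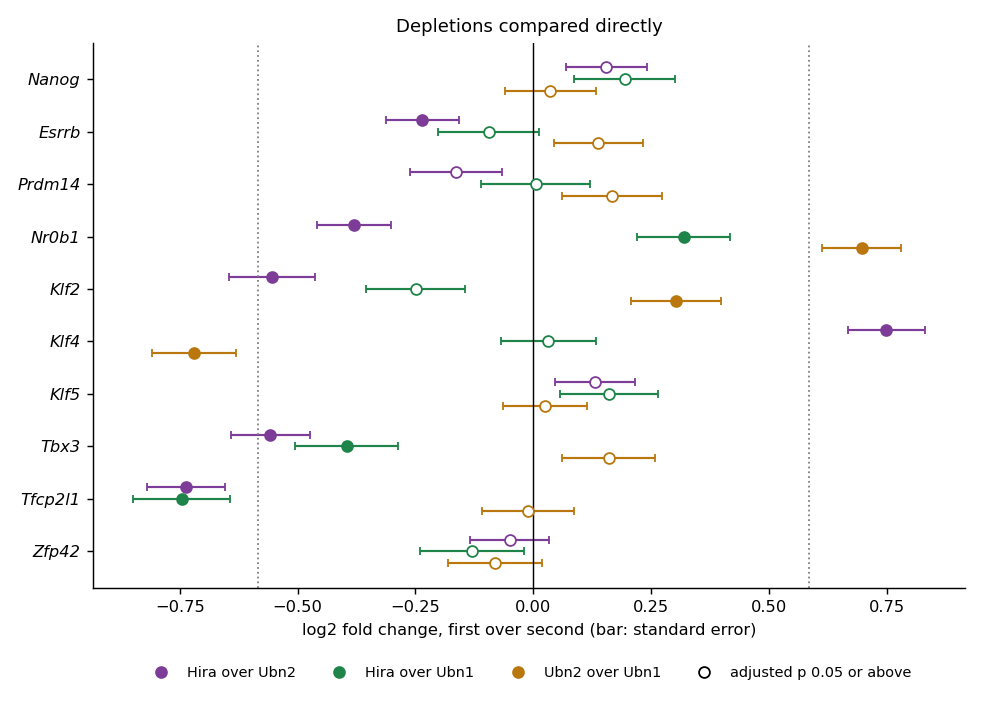
Log2 differences of each member between depletions, from edgeR fits to the 4 libraries of the conditions compared. Bars show the standard error from edgeR, and filled points had an adjusted p under 0.05. Klf4 is higher after Hira than after Ubn2 depletion at 0.75, and Tfcp2l1 is lower after Hira depletion than after either other depletion. The Prdm14 points are all open.

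Genes that feed the network were examined as lists. Over all genes tested, 17.6% rose and 17.3% fell after Hira depletion, and 4.14% rose and 3.62% fell after Ubn1 depletion. After Ubn2 depletion 20% rose, and 39.1% passed the test in either direction. The counts of each list below are to be read beside these shares. Of 12 genes of LIF, STAT3 and Wnt signalling, 2 fell and none rose after Hira depletion, 1 rose and 2 fell after Ubn1 depletion, and 3 rose and 5 fell after Ubn2 depletion. The median log2 fold changes were -0.11, 0.01 and -0.13. Tcf7l1, which encodes the repressor of naive genes that Wnt signalling relieves, rose from 20.7 to 39.0 CPM after Ubn2 depletion (0.91, standard error 0.11, adjusted p = 1.37e-06). Axin2, a direct Wnt target, fell from 16.5 to 8.23 CPM (-1.02, 0.16, adjusted p = 4.79e-05). Socs3, a direct STAT3 target that feeds back on the LIF receptor, fell after Ubn1 depletion (-0.62, 0.12, adjusted p = 0.000643) and Ubn2 depletion (-0.59, 0.11, adjusted p = 0.000246), and its change of -0.32 after Hira depletion did not pass the test (adjusted p = 0.14).

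Of 8 core pluripotency genes, 1 rose and 2 fell after Hira depletion, 1 rose and 1 fell after Ubn1 depletion, and 4 rose and 2 fell after Ubn2 depletion, with medians of -0.03, 0.06 and 0.12 on the log2 scale. Pou5f1 fell by 0.31 after Hira depletion (standard error 0.08, adjusted p = 0.00327), and its changes of -0.20 and -0.12 after Ubn1 and Ubn2 depletion did not pass the test (adjusted p = 0.191 and 0.193). Sox2 did not pass it in any depletion, at 0.19, 0.10 and 0.04 after Hira, Ubn1 and Ubn2 depletion (adjusted p = 0.0569, 0.573 and 0.697). Lin28a, which encodes an RNA-binding protein that blocks let-7 maturation, fell by 1.17 after Ubn2 depletion (0.07, adjusted p = 3.93e-11). Sall4, a zinc finger partner of OCT4, rose by 0.63 (0.07, adjusted p = 9.97e-07).

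A further 18 genes typical of naive cells, which are not among the 10 factors, had median log2 fold changes of -0.17 after Hira, 0.06 after Ubn1 and 0.22 after Ubn2 depletion. In these comparisons 3, 3 and 9 of them rose and 9, 2 and 5 fell, out of 18, 18 and 17 tested. Tex19.1 was called upregulated in all 3, from 48.7 CPM in controls to 87.6, 85.3 and 175 CPM (0.83, 0.81 and 1.85, adjusted p = 6.38e-07, 2.76e-06 and 6.3e-13). Jam2, which encodes a junctional adhesion molecule, rose by 0.69 after Hira depletion (adjusted p = 6.42e-07) and by 0.45 after Ubn2 depletion (adjusted p = 3.5e-05). Fgf4, the growth factor that drives exit from the naive state, fell in all 3 depletions (-0.60, -0.29 and -0.62 after Hira, Ubn1 and Ubn2 depletion, adjusted p = 2.89e-06, 0.0426 and 4.16e-07). Manba rose in all 3 depletions (0.26, 0.82 and 0.76, adjusted p = 0.0171, 7.72e-07 and 4.86e-08), and Mras after Ubn1 and Ubn2 depletion (0.39 and 0.89, adjusted p = 0.00894 and 2.2e-09).

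Genes of the formative and primed epiblast, the states that follow the naive state, were set beside them. Of the 14 tested out of 16, 6 rose and 1 fell after Hira depletion, 2 rose and 1 fell after Ubn1 depletion, and 6 rose and 3 fell after Ubn2 depletion, with medians of 0.29, -0.10 and 0.22 on the log2 scale. Otx2, a factor of the formative state, rose in all 3 depletions (0.67, 0.73 and 0.97, adjusted p = 7.71e-05, 0.000114 and 3.11e-07), as did Zic2 (0.91, 1.06 and 1.19, adjusted p = 9.88e-05, 1.97e-06 and 2.64e-07). Cdh2 and Fst rose after Hira depletion (1.32 and 1.35, adjusted p = 3.29e-05 and 0.00357) and after Ubn2 depletion (0.89 and 1.38, adjusted p = 0.0048 and 0.00298). Lef1 fell after Ubn1 and Ubn2 depletion (-1.27 and -0.93, adjusted p = 0.00436 and 0.0142). Pou3f1 fell after Hira depletion (-0.91, adjusted p = 0.00401). Sox4 and T fell after Ubn2 depletion (-0.34 and -2.36, adjusted p = 0.021 and 0.022). After Ubn1 depletion 5 of the 14 had a positive log2 fold change and 9 a negative one. Nr0b1 and Prdm14 among the naive factors and Otx2 and Zic2 among the later genes were thus higher in the same libraries. The later genes as a list did not share this direction.

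**Figure D5:**
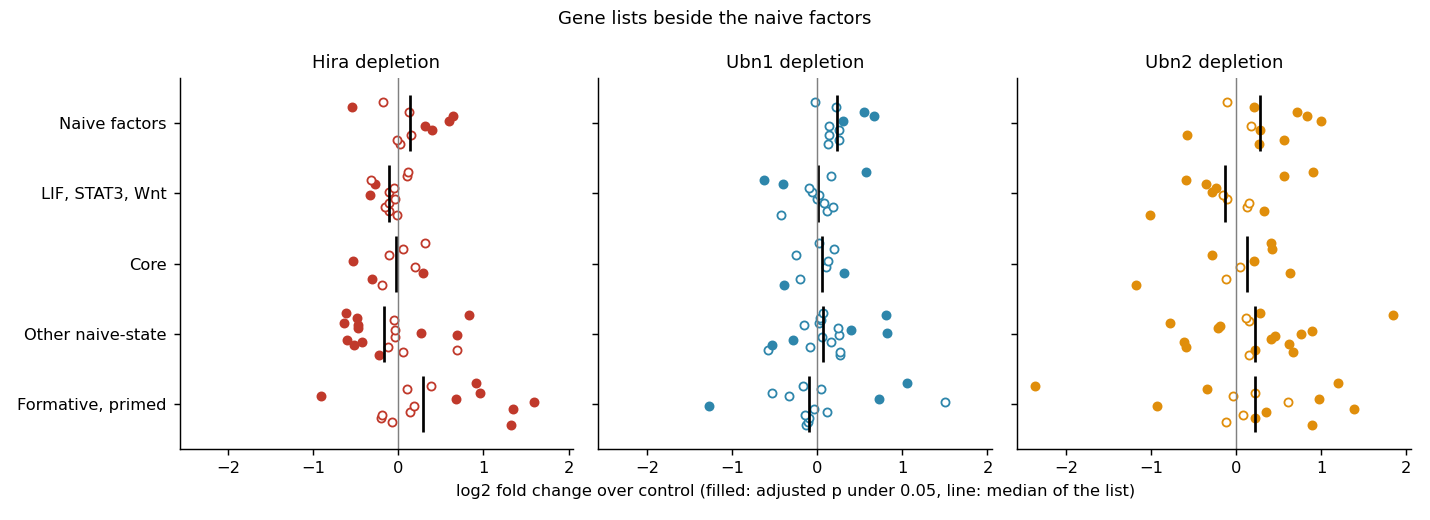
Log2 fold changes against control of the 10 naive factors and of 4 other gene lists after each depletion, with a point for each tested gene, filled where the adjusted p was under 0.05, and a line at the list median. The median of the naive factors is 0.14, 0.24 and 0.28 after Hira, Ubn1 and Ubn2 depletion, and that of the other naive-state genes is -0.17, 0.06 and 0.22.

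Genes often used to scale RNA levels were not level across these libraries. Gapdh fell by 0.34 after Hira depletion (adjusted p = 0.00104) and by 0.43 after Ubn2 depletion (adjusted p = 3.37e-06), and its change after Ubn1 depletion was -0.03 (adjusted p = 0.902). Actb rose by 0.54 after Ubn2 depletion (adjusted p = 2.06e-06), and Ppia fell in all 3 depletions (-0.28, -0.37 and -0.34). Tbp fell by 0.34 after Hira depletion (adjusted p = 0.00246). Its changes of -0.10 and -0.08 after Ubn1 and Ubn2 depletion did not pass the test (adjusted p = 0.594 and 0.41). Changes of the members here are relative to the bulk of the mRNA, and would depend on the gene if read against 1 of these alone. The medians of the 4 level controls other than Hprt, which is near 0 in these cells, were -0.31, -0.07 and -0.21 after Hira, Ubn1 and Ubn2 depletion, and with Hprt -0.28, -0.10 and -0.08.

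Markers of other cell types moved with the depletions too. Over all genes tested, 10.8%, 1.53% and 9.59% were called upregulated after Hira, Ubn1 and Ubn2 depletion, and 5.4%, 1.56% and 8.75% downregulated. Neural markers summed to 131 to 140 CPM in controls, 294 to 304 CPM after Hira, 168 to 192 CPM after Ubn1 and 131 to 138 CPM after Ubn2 depletion, with 4, 1 and 2 of 6 called upregulated and 2 called downregulated after Ubn2 depletion. Of the 9 markers of 2-cell-like cells, 6, 3 and 7 were called upregulated after Hira, Ubn1 and Ubn2 depletion and none downregulated, and Tcstv1 and Zfp352 were at 0 in both controls. The 7 fibroblast markers summed to 20.2 to 20.7, 29.4 to 31.8, 16.3 to 20.6 and 24.0 to 28.3 CPM in control, Hira, Ubn1 and Ubn2 libraries, with 4 of them at 0 in both controls. After Ubn2 depletion Col3a1, Col1a2 and Postn were called upregulated, at 5.44, 2.48 and 1.02 CPM, and Thy1 was called downregulated, from 13.8 to 8.84 CPM, while Col1a1 was called upregulated after Hira depletion and no fibroblast marker was called after Ubn1 depletion. The 9 primitive endoderm markers summed to 14.8 to 17.1, 16.2 to 16.4, 9.17 to 11.1 and 14.6 to 16.9 CPM in the same order, with 2 at 0 in both controls, 1 called upregulated after Hira depletion and 2 downregulated after Ubn1 depletion. The 6 ESC markers summed to 3477 to 3658 CPM in controls, and their sum was lower in every depleted library, at 2889 to 3170 CPM. In each depletion 2 of them had a positive log2 fold change and 4 a negative one. None was called after Hira or Ubn1 depletion, and 1 was called upregulated and 2 downregulated after Ubn2 depletion. The part of these markers in the results on the members was not tested.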

How the data were processed

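Mouse E14 ESC mRNA was measured by RNA-seq in 8 libraries. The authors deposited raw counts per gene, without normalization, as 3 tables, 1 for each knockdown with the controls repeated, and 0 control values differed between them. Per the labels, Trim Galore, STAR and featureCounts with GRCm38 were used, and their versions and the strand setting are not given in the sources used here. Symbols were matched to GENCODE M21, with 55233 matching a single gene. The members and gene lists were chosen with earlier results of these data known. The lists are those named in the report.

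Each comparison used its own 4 libraries in edgeR 4.0.16 (R 4.3.3) with TMM, filterByExpr, quasi-likelihood tests and Benjamini-Hochberg adjustment. Genes past 1.5-fold with an adjusted p under 0.05 were called. Standard errors were obtained from the log2 fold change and the quasi-F statistic. CPM values use TMM factors over all 8 libraries (0.97 to 1.06). Genes named from lists are the 3 called with the smallest adjusted p per depletion, plus Pou5f1 and Sox2. Gapdh, Actb, Ppia, Tbp, Hprt, Actc1, Csrp3, Thy1, Tcstv1, Zfp352, Pou3f1, Sox4 and T were added after their values were seen. Each library's floor of 3 counts is 9.17e-06% to 1.52e-05% of its total, for counting error only. Alternatives were DESeq2 1.42.0, its size factors, 2 other filters, all 8 libraries together, a replicate block, adjusted p alone and each library left out. On simulated counts for Hira depletion against control, with 196 of 18650 genes changed by a log2 change of 1, edgeR called 75.5% of these and 7 unchanged genes. In the data more genes were called, and the members' changes after Hira depletion were smaller, at -0.55 to 0.65. The simulated figures therefore do not give the recovery or error for the members.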

Additional observations from a re-analysis of the deposited data

How the results depend on the processing

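With 2 libraries per condition, an exact permutation test could not have passed a threshold of 0.05, so all calls rest on models that share information across genes, and single libraries decided several. DESeq2's Wald test, DESeq2's size factors in edgeR, a minimum of 10 counts in every library and all 8 libraries in one fit gave the same number of called members as the main fit in all 6 comparisons. No alternative reversed the direction of a member that had passed the test. With no filter on low counts, 1 member was upregulated after Hira depletion in place of 2, and 1 was downregulated after Ubn2 depletion in place of 0. By adjusted p alone, 4 were higher and 1 lower after Hira depletion, 3 higher after Ubn1 depletion, and 7 higher and 1 lower after Ubn2 depletion. In the direct comparisons, adjusted p alone gave 1 higher and 5 lower for Hira against Ubn2 depletion. It gave 1 higher and 2 lower for Hira against Ubn1, and 2 higher and 1 lower for Ubn2 against Ubn1 depletion. Leaving out single libraries gave 0 to 2 members upregulated and 0 to 1 downregulated after Hira depletion, 0 to 2 upregulated after Ubn1 depletion, 2 to 4 upregulated and 0 to 1 downregulated after Ubn2 depletion, and 1 to 3 lower for Hira against Ubn2 depletion. The members' median then ranged from 0.02 to 0.25 after Hira depletion, 0.18 to 0.30 after Ubn1 depletion and 0.23 to 0.34 after Ubn2 depletion. The lone library of a condition was assumed in these fits to vary like the other condition. The cause of the change with no filter was not tested. The replicate numbers of the labels did not pair the libraries, as deviations of same-numbered libraries correlated at -0.06 to 0.07. The replicate block called as many members as the fit without it in all 6 comparisons, 2, 1 and 3 upregulated after Hira, Ubn1 and Ubn2 depletion. With the block, by adjusted p alone, Klf4 and Zfp42 were added after Hira depletion (7 members in place of 5) and Klf2 and Klf5 after Ubn1 depletion (5 in place of 3), and Esrrb was lost for Hira against Ubn2 depletion. Of 600 single-member values, 582 kept their call, 12 were called only under the alternative and 6 no longer were. By adjusted p alone, 18 passed only under the alternative and 19 no longer did.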

Other observations

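The genes whose levels over the 8 libraries were most like each member were sought among 10354 genes averaging at least 10 CPM. Likeness was measured by the root-mean-square difference of log2 CPM, with each gene centred on its mean, and is given as a description. Nr0b1 was most like Gpatch3, at a difference of 0.06 where its own spread was 0.38, and then Npr1 at 0.07. The log2 fold changes of Gpatch3 against control were 0.72 for Hira, 0.36 for Ubn1 and 1.12 for Ubn2 depletion. Klf4 was most like Slc41a1 and Rab6b, both at 0.08 where its own spread was 0.31, and these had log2 fold changes of -0.73 and -0.66 after Ubn2 depletion. Tfcp2l1 was most like Msn and Champ1, both at 0.06 where its own spread was 0.31, with -0.52 and -0.51 after Hira depletion. Prdm14 was most like Ephx1 at 0.09 and Egln2 at 0.10, where its own spread was 0.34. Tbx3 was most like Mepce and Pigl, both at 0.08, and Klf2 most like Gm26628 and Nupl2, both at 0.05. Nanog was most like Zbtb7a at 0.03 and Gabarap at 0.04, Klf5 most like Slx4 and Zdhhc3, both at 0.05, Esrrb most like Wbp11 and Cdk11b, both at 0.03, and Zfp42 most like Srpk1 and S100pbp, both at 0.04. The spread of Zfp42 was only 0.09 and that of Esrrb 0.11, so that genes of small change come out as like them. No member was among the 2 genes most like another.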
